A study of Rattus norvegicus with 8 samples.

Results

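The cadherins and protocadherins are cell surface adhesion proteins, and their transcripts were measured in the hypothalamus of female and male rats. The group was taken as every probe of the array whose gene name begins with Cdh followed by a digit, or with Pcdh, except the endothelial gene Cdh5. This gave 75 of the 26583 gene names on the array, with 84 of its 30367 probes and 111 of its 42877 spots. The series compared 4 females in estrus (F1 to F4) with 4 males (M1 to M4), all Sprague Dawley rats aged 3–4 months. The animals carried no transgene or treatment. Each of 4 two-colour Agilent arrays on 1 slide held the RNA of 1 female and 1 male with the same number, so each array gives a direct female over male ratio. Females were labelled with Cy3 on arrays 1 and 3 and with Cy5 on arrays 2 and 4. The hypothalamus controls feeding, body temperature, stress responses and reproduction, and estrus is the phase of the ovarian cycle in which females are receptive to mating.

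Classical cadherins bind the same or a closely related cadherin on the neighbouring cell through calcium-dependent extracellular repeats, and catenins link their tails to the actin skeleton. Clustered protocadherins are encoded by 3 neighbouring gene arrays, alpha, beta and gamma. In mice, single neurons switch on different sets of promoters in these arrays, and the resulting surface combinations let a neuron tell its own branches from those of others. In the alpha and gamma arrays each promoter has its own large variable exon, which is spliced to exons shared by the whole array, while the beta genes have no shared exons. Delta protocadherins are a nonclustered branch that signals to the actin skeleton, in part through the WAVE complex.

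By subfamily, the 84 probes comprised 4 for type I classical cadherins, 11 for type II cadherins, 8 for other cadherins, 12 for delta protocadherins and 4 for other protocadherins. The clustered arrays had 5 alpha, 22 beta and 18 gamma probes. The scanner files place 48 of the 84 probes on chromosome 18 of the rat assembly rn4 (RGSC v3.4), where the clustered arrays lie. The accessions of 57 probes matched a current RefSeq symbol in the GRCr8 gene table, and Pcdh21 is now called Cdhr1. The other probes keep the array's own names.

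The sequences of 9 probes that the results turn on follow, each 5′ to 3′ with its rn4 position. Each can be read without an internal stop codon in at least 1 frame. The first pair, from the gamma array, has the longest shared run of any 2 member probes, and capitals mark its 20 bases. Without gaps this pair has the same base at 45 of 60 positions and a different one at 15. It is not typical: the next longest run, of 19 bases, lies in the Pcdhga10 and Pcdhga11 probes, which have the same base at 12 of 60 positions.
Pcdhga7, chr18:30626746-30626805, plus strand: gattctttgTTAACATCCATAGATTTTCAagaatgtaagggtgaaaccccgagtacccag
Pcdhga8, chr18:30637535-30637594, plus strand: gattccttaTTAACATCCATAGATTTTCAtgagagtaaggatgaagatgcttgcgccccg

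Of the next 7, 6 are taken from the probes with an unadjusted p under 0.05 for sex or a large dye term, not all of which are shown, and 1 is the second Pcdh7 probe. Capitals mark the stop codon that closes the reading frame in the probes of Pcdhb4 and of the first Pcdh7 probe. Both Pcdh7 probes are shown because they gave different results for 1 gene.
Cdh29, chr8:113262944-113263003, plus strand: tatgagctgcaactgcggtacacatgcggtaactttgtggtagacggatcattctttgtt
Pcdhb4, chr18:30119477-30119536, plus strand: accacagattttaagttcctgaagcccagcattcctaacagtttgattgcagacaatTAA
Pcdh9, chr15:76734787-76734846, minus strand: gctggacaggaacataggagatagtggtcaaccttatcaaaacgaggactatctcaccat
Cdh13, chr19:49566338-49566397, plus strand: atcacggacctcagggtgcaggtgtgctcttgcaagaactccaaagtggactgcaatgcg
Pcdh7, first probe, chr14:56609039-56609098, minus strand: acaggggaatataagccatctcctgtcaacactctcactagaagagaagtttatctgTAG
Pcdh7, second probe, chr14:57320712-57320771, minus strand: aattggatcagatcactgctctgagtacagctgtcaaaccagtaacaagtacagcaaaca
Pcdh17, chr15:66480921-66480980, plus strand: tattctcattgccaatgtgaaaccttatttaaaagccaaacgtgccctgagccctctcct

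The arrays were bright, and no spot of a gene probe was saturated. The median signal above local background was 492.5 to 519 in the Cy3 samples and 146 to 269.5 in the Cy5 samples. The scanner software called 84.9% to 87.0% of spots well above background in Cy3 and 77.6% to 80.2% in Cy5. Levels below are log2 brightness after normalization, and they are compared between samples for the same probe, never between probes. Ratios are log2 female over male with their standard error (SE) from a limma fit with a sex and a dye term over 4 arrays, which leaves 2 residual degrees of freedom before the fit borrows information across probes. A level in whole tissue cannot tell fewer cells of a type from less RNA per cell.

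The library labelled male replicate 2 (M2) stood apart from the others and bears on all results below. At 611 of the 21995 probes tested (2.78%) it lay at least 1 log2 unit above the other 3 Cy3 samples, and at 376 (1.71%) at least 1 unit below them, against at most 46 and 42 probes for any other sample. The mean level of 15 hypothalamic marker genes was 9.73 in M2 and 11.54 to 11.90 in the other 7 samples. M2 had the lowest level of its dye for 13 of the 15. The vasopressin gene Avp stood at 12.02 in M2 and at 16.15 to 16.68 elsewhere.

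Of the 9 tested markers of cortex, hippocampus and striatum, M2 was the highest of its dye for 7 and the lowest for 2, and their mean was 11.80 in M2, 10.53 in F2 and 9.46 to 9.89 in the other samples. The 2 low ones were striatal genes, Rgs9 at 10.56 beside 11.25 to 12.22, and Drd2 at 10.29 beside 10.63 to 11.38. Another striatal gene of the list, Ppp1r1b, went the other way, at 13.35 in M2 beside 12.24 to 13.09. The cortical transcription factor gene Neurod6 stood at 13.90 in M2, 11.94 in F2 and 7.25 to 9.04 in the others. The 12 meningeal markers averaged 9.85 in M2 against 10.90 to 12.15, and M2 was the lowest of its dye for all 12. The next lowest mean, 10.90, was that of M4. That sample also had the highest mean of 7 choroid plexus markers, 9.71 against 8.52 to 8.82, with Ttr at 16.49 against 10.92 to 13.78. M4 was the highest sample for Ttr, Clic6 and Slc4a5, but not for Kcnj13, Folr1, Otx2 and Aqp1. Kcnj13, for instance, stood at 9.32 in M4 and 10.02 in F1. Since F2 shares an array with M2, results are given with all arrays and without replicate 2, meaning without that array. What part these marker levels have in the results on cadherins was not tested.

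Detection is given by subfamily, and whether the counts reflect the genes or their probes was not tested. Of all 30367 probes on the array, 20822 were well above background in all 8 samples and could be tested. Of the 84 probes, 64 were well above background in all 8 samples and 3 in none, namely Cdh16, a kidney cadherin, Pcdh12, known from endothelium, and Pcdhga6. Probes detected above background in every female or in every male were kept, 22004 of all 30367 probes. This left 69 of the 84 member probes, of 62 genes, for testing. The 15 that did not pass were Cdh16, Cdh18, Cdh19, Cdh26, Pcdh12, the second probe of Pcdh11x, Pcdhb1, Pcdhb11, Pcdhga3, Pcdhga5, Pcdhga6, Pcdhga10, Pcdhga11, Pcdhgb8 and the variable-exon probe of Pcdhga7.

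The gamma array lost the most, with 11 of 18 probes tested, against 20 of 22 beta probes and 5 of 5 alpha probes. Pcdhga7 has a probe of each kind. Its variable-exon probe, printed above, was well above background in 2 of 4 females and 3 of 4 males, with levels of 6.59 to 6.77. Its other probe lists 4 RefSeq transcripts, of Pcdhga5, Pcdhga7, Pcdhga9 and Pcdhga12, and gave 15.46 to 15.65 in females and 15.51 to 16.15 in males, with M2 the highest. That probe therefore reports on several promoters of the array, and its log2 ratio was -0.20 ± 0.13, or -0.03 ± 0.07 without replicate 2.

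No cadherin or protocadherin probe differed between the sexes after Benjamini-Hochberg adjustment. At an adjusted p under 0.05 the count was 0 of 69 probes, as for the array as a whole (0 of 21995, 0.0%), and the lowest adjusted p of a member was 0.555. At an unadjusted p under 0.05 the count was 7 of 69 (10.1%), beside 8.5% of all probes. In 5 of the 7 the level was higher in females (7.25%, beside 4.98%) and in 2 it was higher in males (2.9%, beside 3.52%). These shares lie near the background. The 7 were Cdh1, Cdh13, Pcdh9, Pcdh7 and Pcdhb4, higher in females, and Cdh29 and Pcdhac2, higher in males, and each had an adjusted p of 0.555 in limma. Leaving out replicate 1 left 1 of the 7 at this threshold and leaving out replicate 3 left 0, whereas all 7 were past it without replicate 4. Of all probes, 4.03% were past it without replicate 1, 1.84% without replicate 3 and 29.6% without replicate 4. The split by direction differed between settings: in the authors' value table, where 53 members were tested, 8 passed and all were higher in males, beside 8.61% of all probes in that direction there. The fit that ignored the pairing by array gave 1 higher in females and 4 in males. Of all 21995 probes, that fit gave 965 higher in females and 761 in males.

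Ratios were small. The median log2 ratio over the 69 probes was -0.02, beside 0.02 over all 21995 probes, and the median size was 0.11 against 0.10. Of the 69, 27 were above 0 and 42 below, whereas 56.1% of all probes were above 0. Without replicate 2 the counts were 33 and 35 of 68 probes, with a median of -0.01. All 4 arrays had the same sign for 13 of the 69 probes (18.8%, beside 11.0% of all probes), 4 above and 9 below 0. The levels of the 2 sexes did not overlap for 3 probes (4.35%, beside 2.89%): Cdh20, Pcdhb14 and Pcdhb18, each lower in every female than in every male.

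**Figure D1:**
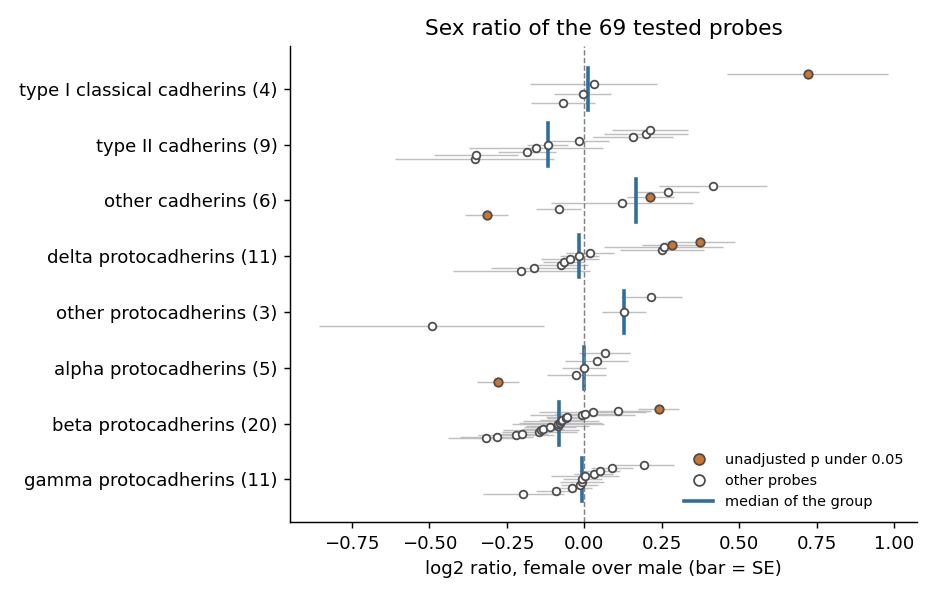
Log2 female over male ratio (x axis) of each of the 69 tested probes, by subfamily with the number of tested probes in brackets; points are fitted ratios, grey bars their SE and blue lines subfamily medians. The 7 filled points have an unadjusted p under 0.05 and lie on both sides of 0, and the beta protocadherins have 16 of 20 probes below 0 (13 of 20 without replicate 2).

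Among the type I classical cadherins, Cdh1 (E-cadherin, the adhesion protein of epithelia) had the largest positive ratio of all member probes. Its levels were 10.29, 10.17, 9.40 and 10.26 in F1 to F4 and 10.22, 7.78, 10.08 and 9.14 in M1 to M4. The sexes overlapped, F3 was the lowest female, and M2 was lower than every other sample by over 1 unit. The fitted ratio was 0.72 ± 0.26, and 0.41 ± 0.18 without replicate 2, and it no longer had an unadjusted p under 0.05 there, nor without replicate 1 (0.53) or replicate 3 (0.91). Array 3 went the other way, with a ratio of -0.68.

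The other type I genes showed ratios near 0. Cdh2 (N-cadherin, the main classical cadherin of neural tissue) is spotted 10 times per array and had levels of 9.66 to 10.38 in females and 9.32 to 10.58 in males. Its ratio was 0.03 ± 0.21, with values of 1.06, -0.35, -0.08 and -0.51 on arrays 1 to 4, so a single array carried the positive part. Cdh3 (P-cadherin) gave -0.07 ± 0.10 and Cdh15 (M-cadherin, known from muscle) gave -0.01 ± 0.09. Both were within their errors with 4 arrays, and they were -0.17 ± 0.09 and -0.11 ± 0.07 without replicate 2.

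Type II cadherins are expressed in restricted sets of neurons and sort them by type. None of their 9 tested probes had a p under 0.05, with 3 ratios above and 6 below 0 and a median of -0.12. Without replicate 2 the split was 6 above and 3 below, with a median of 0.01. The subfamily also held 4 of the 15 probes at which M2 lay 0.5 units or more outside the other Cy3 samples.

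The clearest of these was Cdh9, which in mouse hippocampus helps to set synapse type. Its levels were 8.26, 8.60, 8.56 and 7.83 in females and 7.87, 10.42, 8.18 and 8.19 in males. Every sample but M2 lay between 7.83 and 8.60. The ratio was -0.35 ± 0.26 and became 0.01 ± 0.07 without replicate 2, a change of sign. Cdh10 had the same pattern to a lesser degree, at 11.40 in M2 and 10.28 to 10.78 elsewhere.

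Cdh20 was the type II cadherin whose sexes did not overlap. Females stood at 9.14, 8.97, 9.11 and 9.06 and males at 9.17, 9.25, 9.16 and 9.17. The gap between the lowest male and the highest female was narrow, and the ratio was -0.12 ± 0.07, or -0.08 ± 0.07 without replicate 2. The direction held on all 4 arrays, but the difference did not pass the test.

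Cdh11, a cadherin of mesenchyme and meninges as well as neurons, had a pair of tested probes, with ratios of -0.35 ± 0.14 and -0.18 ± 0.09. The first stood at 7.96, 7.51, 7.45 and 7.32 in females and 7.59, 8.16, 7.76 and 8.14 in males. The second stood at 8.41, 8.41, 8.18 and 7.97 in females and 8.11, 9.08, 8.17 and 8.34 in males. At both, F1 lay above M1, F2 and F4 lay below the males of their arrays, and M2 was the highest sample, so the sexes overlapped. These ratios were -0.39 ± 0.16 and -0.11 ± 0.09 without replicate 2. The first was -0.18 without replicate 3 and -1.04 with median centring of the scanner's log ratios. Cdh6 at 0.16 ± 0.13, Cdh22 at 0.20 ± 0.14 and Cdh7 at 0.21 ± 0.12 completed the positive side with 4 arrays, and these were 0.01 ± 0.09, 0.03 ± 0.08 and 0.06 ± 0.08 without replicate 2. Cdh22 lay below the other Cy3 samples in M2, at 12.25 against 12.83 to 12.98.

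Among the other cadherins, Cdh13 (T-cadherin, which is anchored by a lipid and has no cytoplasmic tail) gave 1 of the more even ratios. The probe printed above stood at 14.05, 13.98, 14.14 and 14.14 in females and at 13.99, 13.65, 13.86 and 13.94 in males. Females were higher within each of the 4 arrays, by 0.06, 0.32, 0.28 and 0.20, although F2 lay just below M1. The ratio was 0.21 ± 0.07, and 0.18 ± 0.08 without replicate 2, no longer at an unadjusted p under 0.05. The second Cdh13 probe, which had no value on array 1 because that spot was marked as an outlier, gave 0.12 ± 0.23. It stood at 13.13, 12.76 and 12.91 in F2 to F4 and at 12.22, 12.98 and 12.88 in M2 to M4. Only M2 lay outside the range of the females, and with replicate 2 left out it could not be fitted.

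Cdh29, for which no function is given here, had the lowest unadjusted p of all member probes at 1 of its probes and a ratio of the opposite sign at the other. At the probe printed above, levels were 8.07, 7.54, 7.83 and 7.82 in females and 8.76, 7.50, 8.63 and 7.63 in males, and the ratio was -0.32 ± 0.07. The 4 array ratios were -0.69, 0.03, -0.80 and 0.19, so they were below 0 where the female was in Cy3 and above 0 where the female was in Cy5. The other probe, spotted 10 times per array, gave 0.27 ± 0.10, with levels of 12.53, 12.21, 12.09 and 12.36 in females and 12.56, 11.31, 12.36 and 11.88 in males. There M2 was the lowest sample, and the ratio was 0.16 ± 0.09 without replicate 2. Neither probe gave 1 direction in both dye orientations.

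Cdh23, a component of the tip links of inner ear hair cells, stood at 9.33, 9.10, 8.72 and 9.02 in females and 8.71, 8.28, 8.43 and 9.09 in males. M2 was the lowest sample, and the ratio of 0.42 ± 0.17 became 0.19 ± 0.10 without replicate 2. Cdh17, known from liver and intestine, gave -0.08 ± 0.07.

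Delta protocadherins had 5 ratios above and 6 below 0 among 11 tested probes, with a median of -0.02. Of the 11, 2 had an unadjusted p under 0.05, beside 8.5% of all probes. Pcdh9 was higher in females on all 4 arrays. Its levels were 11.28, 11.80, 11.17 and 11.55 in females and 11.09, 10.98, 10.95 and 11.28 in males, so that F3 overlapped with M4. The ratio was 0.37 ± 0.11, with array values of 0.19, 0.82, 0.22 and 0.27. Array 2 contributed most, and without replicate 2 the ratio was 0.24 ± 0.07, still at an unadjusted p under 0.05.

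The 2 Pcdh7 probes differed. The first, which ends at a stop codon, stood at 8.99, 8.63, 9.24 and 8.55 in females and 8.04, 8.82, 8.26 and 9.17 in males. Its ratio was 0.28 ± 0.10, but its array values of 0.95, -0.19, 0.99 and -0.62 changed sign with the dye. The second probe stood at 8.21, 8.12, 8.20 and 8.14 in females and 8.36, 7.81, 8.44 and 8.23 in males, a ratio of -0.05 ± 0.09 that turned to 0.06 without replicate 4. Its females lay within the range of its males. No single direction for Pcdh7 can be read from these probes, and the first gave 0.17 ± 0.07 without replicate 2, no longer at an unadjusted p under 0.05.

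Pcdh18 was among the probes at which M2 stood lowest. It stood at 10.04, 9.0, 10.15 and 9.35 in females and 9.04, 8.88, 9.30 and 10.29 in males. All Cy3 samples but M2 lay above all Cy5 samples, and M2 lay below every other sample. The ratio was 0.26 ± 0.19, and -0.01 ± 0.08 without replicate 2. Pcdh8, whose product arcadlin is induced by neuronal activity, stood at 12.32 in M2 and at 10.97 to 11.35 in the other samples.

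Pcdh1 gave -0.06 ± 0.07, Pcdh10 gave -0.08 ± 0.09 and the tested probe of the X-linked gene Pcdh11x gave -0.02 ± 0.06. Each of these ratios was smaller than its SE. Pcdh19, a second X-linked gene, in which human mutations cause an epilepsy that affects mainly females, gave -0.16 ± 0.14, or 0.01 ± 0.09 without replicate 2. In each of these 4 genes the levels of females and males overlapped.

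Among the remaining protocadherins, Pcdh20 had the most negative ratio of all member probes, and it rested on M2. Females stood at 9.47, 9.32, 9.55 and 9.63 and males at 9.48, 11.27, 9.70 and 9.49. The ratio was -0.49 ± 0.36, and 0.03 ± 0.08 without replicate 2. Pcdh24 stood at 10.21, 10.21, 10.26 and 10.37 in females and 10.03, 9.70, 10.13 and 10.31 in males. Females were higher on each array, with M2 the lowest sample and a ratio of 0.22 ± 0.10, or 0.10 ± 0.07 without replicate 2. Pcdh21 (Cdhr1, known from photoreceptors) gave 0.13 ± 0.07 over 10 spots per array.

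**Figure D2:**
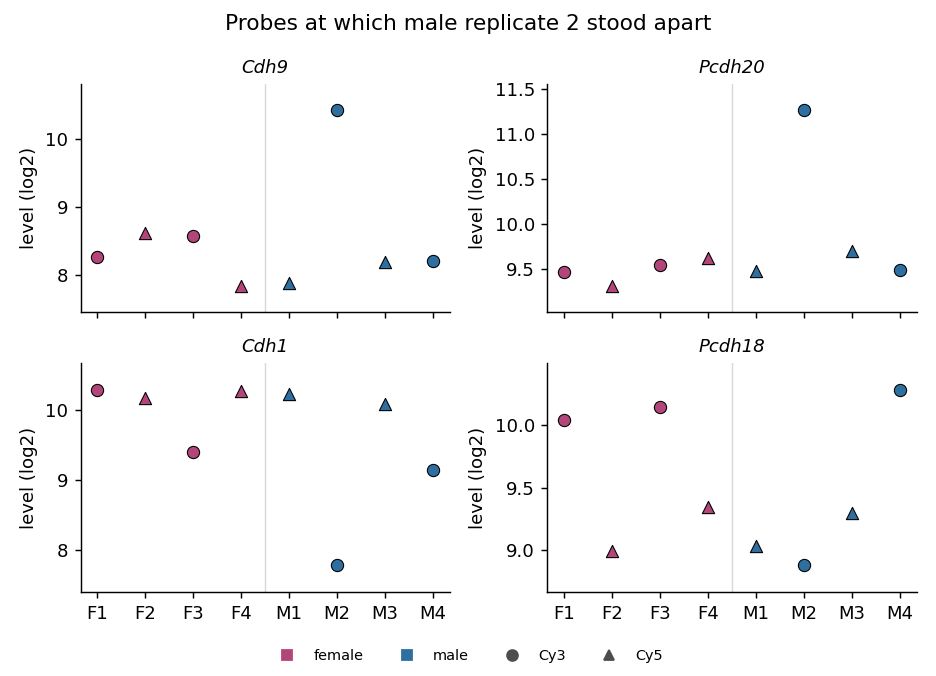
Normalized log2 level (y axis) of the 4 member probes at which male replicate 2 lay at least 1 log2 unit outside the other Cy3 samples; colour gives the sex and shape the dye. M2 stands at 10.42 for Cdh9 and 11.27 for Pcdh20, above all other samples, and at 7.78 for Cdh1 and 8.88 for Pcdh18, below all other samples.

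These 4 probes were 2 of 69 (2.9%) above the other Cy3 samples, beside 2.78% of all probes, and 2 of 69 (2.9%) below them, beside 1.71%. At a distance of 0.5 units M2 was above at 8 probes (11.6%, beside 7.3%) and below at 7 (10.1%, beside 6.86%). The high ones were Cdh9, Pcdh20, Pcdh8, Cdh10, Pcdhb13, Pcdhb19, 1 probe of Cdh11 and the 4-transcript probe of Pcdhga7. The low ones were Cdh1, Pcdh18, Cdh22, Pcdh24, 1 probe of Cdh13, 1 of Pcdh17 and the 10-spot probe of Cdh29. No other sample stood 0.5 units or more outside its dye group in 1 direction at more than 2 of the member probes. Of the 7 probes with an unadjusted p under 0.05, Cdh1 alone is among these 15.

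In the alpha array, 4 of the 5 probes, for Pcdha1, Pcdha2, Pcdha3 and Pcdha13, had ratios of -0.03 to 0.07 with SEs of 0.07 to 0.10. The fifth was labelled Pcdhac2 and lists 4 RefSeq transcripts, so it does not report on 1 promoter alone. It stood at 11.11, 11.14, 11.08 and 11.41 in females and at 11.44, 11.33, 11.57 and 11.53 in males. Only F4 reached into the range of the males. The ratio was -0.28 ± 0.07, below 0 on all 4 arrays, and -0.26 ± 0.08 without replicate 2, at an unadjusted p under 0.05 in both fits.

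In the beta array, 16 of 20 tested probes had ratios below 0, beside 9662 of all 21995 probes, with a median of -0.08. Without replicate 2 the count was 13 of 20 and the median -0.07. Of the 20, 7 had 1 sign on all 4 arrays, beside 11.0% of all probes, and 6 of the 7 lay below 0. Only Pcdhb4 had a p under 0.05, and it lay above 0. The probes come from neighbouring genes of similar sequence, share their 4 arrays and are therefore not independent, and no test was made over the array.

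Pcdhb4 stood at 8.17, 8.44, 8.08 and 8.51 in females and 7.97, 8.04, 7.98 and 8.24 in males. M4 lay above F1 and F3, but each female was above the male of its own array, by 0.20, 0.39, 0.11 and 0.26. The ratio was 0.24 ± 0.07, and 0.21 ± 0.07 without replicate 2, at an unadjusted p under 0.05 in both fits. It is the second probe from the start of the tested beta genes along the chromosome.

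Pcdhb14 and Pcdhb18 were the beta probes whose sexes did not overlap. Pcdhb14 stood at 8.14, 8.01, 7.84 and 8.21 in females and 8.30, 8.42, 8.50 and 8.25 in males, a ratio of -0.32 ± 0.12. Pcdhb18 stood at 8.83, 8.65, 8.71 and 8.87 in females and 9.09, 9.29, 8.88 and 8.94 in males, a ratio of -0.28 ± 0.12. Both differences missed the threshold before any adjustment. Without replicate 2 they were -0.23 ± 0.13 and -0.14 ± 0.07.

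The other beta genes with a probe below 0 on 4 arrays were Pcdhb9, Pcdhb17, Pcdhb20 and Pcdhb22. The first Pcdhb9 probe stood at 7.96, 8.09, 8.19 and 8.02 in females and 8.16, 8.48, 8.35 and 8.07 in males, a ratio of -0.20 ± 0.08. The second stood at 8.39, 8.59, 8.76 and 8.52 in females and 8.56, 8.85, 8.61 and 8.67 in males, a ratio of -0.11 ± 0.08. M2 was the highest sample at both, and neither had an unadjusted p under 0.05. The ratios were -0.11 ± 0.07 and -0.08 ± 0.10 without replicate 2.

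Pcdhb17 stood at 7.67, 7.65, 7.09 and 7.57 in females and 7.71, 7.80, 7.74 and 7.61 in males. The low F3 made up most of its ratio of -0.22 ± 0.12. Pcdhb22 stood at 7.24, 7.33, 7.22 and 7.38 in females and 7.45, 7.49, 7.38 and 7.39 in males, a ratio of -0.13 ± 0.07. F4 lay at the lower end of the males and the other females below them.

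Levels at the Pcdhb20 probes varied little between samples. The first gave 7.64, 7.61, 7.58 and 7.84 in females and 7.80, 7.63, 7.75 and 7.72 in males, and the second 7.35, 7.41, 7.37 and 7.48 in females and 7.40, 7.47, 7.37 and 7.60 in males. Their ratios were -0.06 ± 0.07 and -0.06 ± 0.06, both smaller than their SE. The remaining 11 beta probes had ratios between -0.15 and 0.11.

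**Figure D3:**
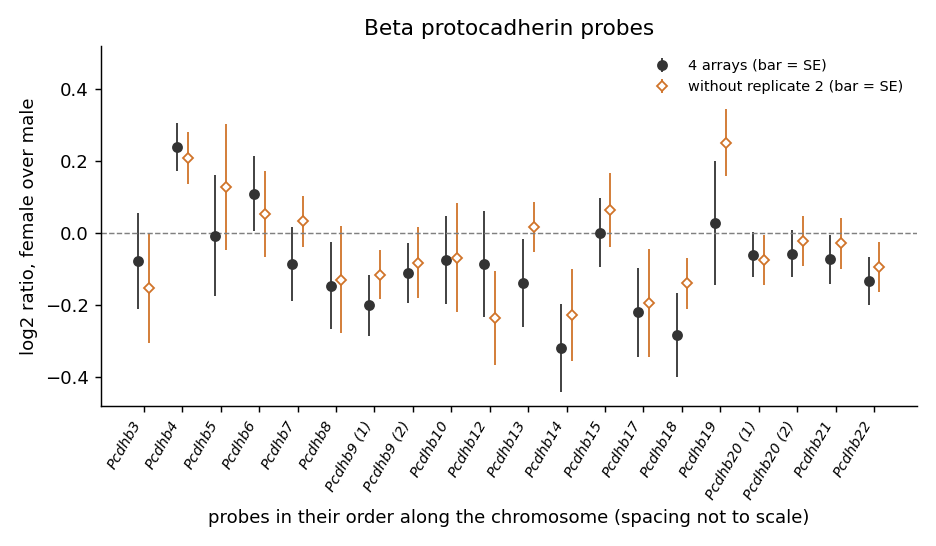
Log2 female over male ratio (y axis, bars are SE) of the 20 tested beta protocadherin probes in their order along the chromosome, with 4 arrays (filled circles) and without replicate 2 (open diamonds). With 4 arrays 16 of 20 ratios lie below 0, beside 9662 of all 21995 probes, and 13 of 20 lie below 0 without replicate 2. Pcdhb4 at 0.24 is the only one with an unadjusted p under 0.05.

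In the gamma array no tested probe had a p under 0.05, with 5 ratios above and 6 below 0 and a median of -0.01. Besides the 4-transcript probe of Pcdhga7, ratios ran from -0.09 ± 0.06 (Pcdhga12) to 0.19 ± 0.10 (Pcdhga8). Pcdhga12 stood at 6.74, 6.80, 6.62 and 6.72 in females and 6.82, 6.83, 6.79 and 6.81 in males. Each female was below the male of its array, but F2 lay above M3. This probe was not well above background in all samples and passed the filter through 1 sex only. The lowest levels called well above background ran from 5.40 (M1) to 6.50 (M3), close to its own, so little can be read from its direction. Pcdhga8, whose probe shares a run of bases with the dim Pcdhga7 probe, stood at 7.03, 6.71, 7.38 and 7.01 in females and 6.93, 6.72, 6.89 and 6.82 in males. The sexes overlapped and F3 was the highest.

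Several members had dye terms larger than their sex ratios. A dye term with an adjusted p under 0.05 was found for 6 of 69 probes (8.7%, beside 12.7% of all probes). It was positive, meaning a higher ratio where the female was in Cy3, for Pcdh17 (1.05 ± 0.08), Cdh8 (0.97 ± 0.10), Pcdh19 (0.95 ± 0.14), Cdh7 (0.83 ± 0.12) and the first Pcdh7 probe (0.69 ± 0.10). It was negative for the single-spot Cdh29 probe (-0.43 ± 0.07). All sex ratios of these genes come from averaging over both orientations.

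Pcdh17 shows the size of this effect. The probe printed above stood at 10.30, 8.89, 10.44 and 9.38 in females and 9.12, 9.84, 9.49 and 10.49 in males. All Cy3 samples (F1, F3, M2 and M4) were higher than all Cy5 samples, whatever the sex. Array ratios were 1.18, -0.95, 0.95 and -1.11 and averaged to 0.02 ± 0.08, a sign that turned under 5 of the other settings. The other Pcdh17 probe stood at 13.09, 13.38, 13.07 and 13.33 in females and 13.41, 12.30, 13.21 and 12.93 in males. Its dye term was in the other direction, at -0.49 ± 0.14, and did not pass the adjustment. With M2 the lowest sample, its ratio was 0.25 ± 0.14, or 0.08 ± 0.08 without replicate 2.

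Cdh8, a type II cadherin, stood at 8.58, 8.07, 8.91 and 8.03 in females and 7.77, 9.22, 7.82 and 8.85 in males, again with all Cy3 samples on top. Its ratio was -0.02 ± 0.10, or 0.07 ± 0.09 without replicate 2. Pcdh19 showed the same order, at 12.61, 11.22, 12.56 and 11.78 in females and 11.70, 12.69, 11.88 and 12.55 in males. Cdh1 had the most negative dye term of the member probes, -1.03 ± 0.26 (adjusted p = 0.078). Its 3 lowest samples, M2, M4 and F3, were labelled with Cy3, but so was its highest, F1.

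The sign of the ratio followed the dye orientation on all 4 arrays for 20 of 69 probes (29.0%, beside 41.6% of all probes). Over the member probes, the ratios of arrays 1 and 3, with the same orientation, had a correlation of 0.67, and those of arrays 1 and 4, with opposite orientations, one of -0.73. These describe probes that share arrays and dyes and are given without a test.

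**Figure D4:**
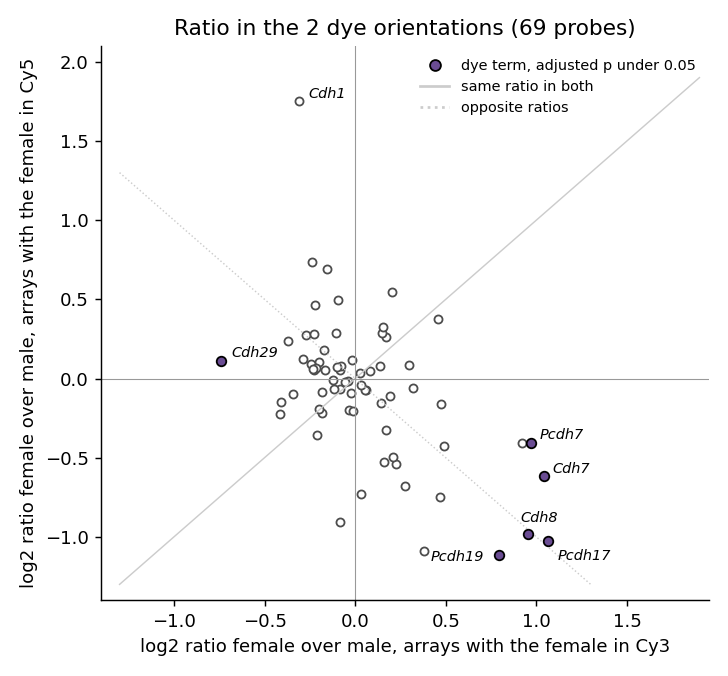
Mean log2 female over male ratio of each of the 69 tested probes on the arrays with the female in Cy3 (x axis) and in Cy5 (y axis); a probe with the same ratio in both orientations would lie on the solid diagonal. The 6 filled points have a dye term with an adjusted p under 0.05, and 5 of them lie at lower right, above 0 in one orientation and below 0 in the other.

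**Figure D5:**
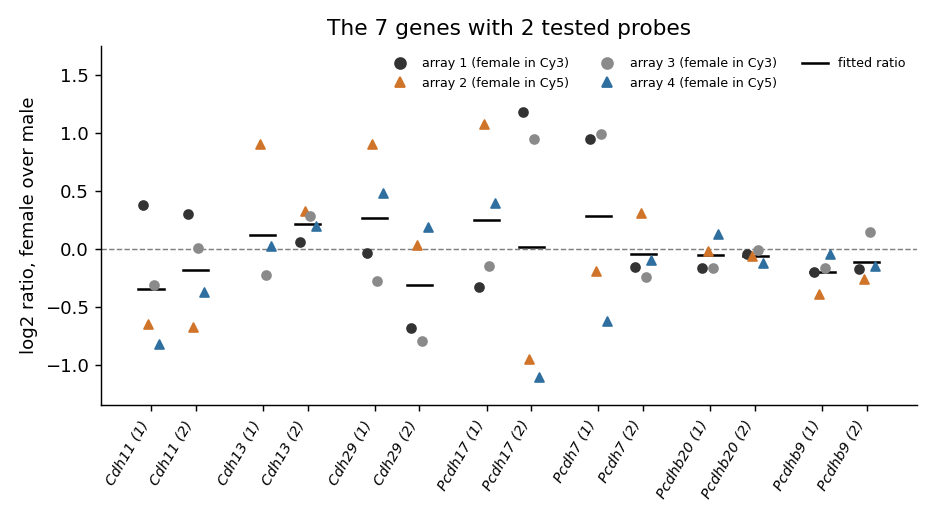
Log2 female over male ratio (y axis) on each array for both probes of the 7 genes with 2 tested probes; circles are arrays with the female in Cy3, triangles those with the female in Cy5, and black lines the fitted ratios, with the probe printed above as number 2 for Cdh13, Cdh29 and Pcdh17. The probes of Cdh29 lie on opposite sides of 0, at 0.27 and -0.32, while those of Pcdhb9 lie at -0.20 and -0.11.

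Genes that act with cadherins were read from lists of partners. Over 60 tested probes of 47 such genes, 0 passed the adjusted threshold and 6 had an unadjusted p under 0.05 (10.0%, beside 8.5% of all probes). Catenins had 1 of 10 probes above 0, with a median of -0.16, and 0 with a p under 0.05. Ctnnb1 (beta-catenin) gave -0.03 ± 0.06, Ctnna1 (alpha-catenin) -0.21 ± 0.10 and Ctnnd2 (delta-catenin) -0.40 ± 0.16. Without replicate 2 the median was -0.08 and 0 of 10 were above 0.

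Other members of the cadherin superfamily had 13 tested probes, of which 1 was higher in females and 3 higher in males at an unadjusted p under 0.05. That is 30.8%, beside 8.5% of all probes, and no test was made over this short list. Fat4, which binds the cadherin Dchs1 in planar polarity and growth control, stood at 8.23, 8.18, 7.63 and 7.90 in females and 8.69, 9.41, 8.69 and 8.34 in males. The sexes did not overlap, as at 2.89% of all probes. The ratio was -0.80 ± 0.18, and it was -0.60 ± 0.15 without replicate 2. Celsr2, a cadherin of planar polarity with several membrane passes, gave -0.69 ± 0.15, with array 1 at 0.03. Clstn1, a calsyntenin of axonal transport, gave -0.22 ± 0.08 and changed sign with the dye. Fat3 gave 0.31 ± 0.09, higher in females on 3 of 4 arrays. Without replicate 2 the unadjusted p stayed under 0.05 for Fat4, Celsr2 and Fat3 but not for Clstn1.

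Among 18 probes for proteases that cut cadherins and for chromatin factors, 9 were above 0 and Ctcf alone had a p under 0.05. Ctcf encodes the DNA-binding protein that loops protocadherin promoters to their enhancers in mouse neurons. Its ratio was -0.27 ± 0.10, below 0 on 4 arrays, with array 3 at -0.60 and the others between -0.18 and -0.13. In the fit without replicate 2 it was -0.26 ± 0.12, no longer at an unadjusted p under 0.05. There 1 probe each of Smchd1 (0.27) and Smc3 (0.21) was under that threshold, but both probes changed sign with the dye. The other probes of Smchd1 (0.02) and Smc3 (0.20) were not under it. Of 19 probes for the WAVE complex and actin linkers, 3 were above 0, with a median of -0.12. Without replicate 2, 8 of the 19 were above 0 and the median was -0.03. Cyfip1, a WAVE subunit, gave -0.71 ± 0.25, with array 3 at -1.64 and the others between -0.71 and -0.17, and it missed the unadjusted threshold without replicate 2.

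Leaving out an array changed the counts. Without replicate 2, 4 of 68 member probes had an unadjusted p under 0.05, beside 7.99% of all probes, and all 4 were among the 7 found with 4 arrays: Pcdh9, Pcdhb4, Pcdhac2 and the single-spot Cdh29 probe. Without replicate 4, 5 of 68 passed the adjusted threshold, beside 6.78% of all probes. They were Pcdh20 (-1.01), Cdh9 (-0.72), Cdh23 (0.64), Pcdh18 (0.52) and Pcdh9 (0.51). In that fit M2 is the only male in Cy3, and 3 of these 5 had ratios within 0.03 of 0 without replicate 2. The fits with 3 arrays have 1 residual degree of freedom.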

How the data were processed

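RNA of 8 hypothalami was measured on 4 two-colour Agilent arrays. Per the submitters' processing notes, spots were read with Agilent Feature Extraction 10.7.3.1. The deposited files give, per the file headers, the intensity of each spot and of its local background and flags. The authors' value table holds log2 values with a median of 0 in each sample. They equal, within 0.01, the log2 of background-subtracted median signals shifted by a constant, and the steps behind them are not given in the sources used here.

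Intensities were corrected with normexp (offset 50) and loess-normalized within arrays in limma 3.58.1 (R 4.3.3), with control spots at weight 0 and outlier spots (931 to 1096 per array) left out, and spots of a probe were averaged. Levels were scaled between arrays with Aquantile. Of 30367 probes, 22004 had over 0.5 of their spots well above background in every female or in every male, and 21995 could be tested. limma fitted the within-array log2 ratio on sex and dye, with Benjamini-Hochberg adjustment over all of them. All p-values come from limma, and from this fit unless another setting is named. The script was tested on simulated data.

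The members, the subfamilies and the partner and marker lists were chosen with earlier results of these data known, so nothing here is independent evidence. By rule, values per sample are given for probes with an unadjusted p under 0.05, 1 sign on 4 arrays, the 5 widest ranges, the 2 largest dye terms in each direction, or a second tested probe of the gene, 29 probes in all. Beyond this rule they are also given for Cdh23, Pcdh18 and Pcdhga8. The numbers pair a female and a male because they share an array, and after removal of the dye effect the residuals of a pair, over probes, had correlations of 0.57, 0.65, 0.41 and -0.05 on arrays 1 to 4. The number of arrays limits the precision. Alternatives were no dye term, separate channels, no background correction, median centring, the authors' table, other filters and priors, leaving out each array, and an offset of 16 added after seeing the data.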

Additional observations from a re-analysis of the deposited data

Results flagged for a closer look

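The probes whose values are given by rule made 56 groups of 4 levels, 1 sex at a time. In 3 groups the most extreme sample lay far from the others, by a gap above Dixon's critical share of the group's range. Chance alone flags about 1 in 20 groups, a rate that does not carry over here, since all 3 probes were among the 5 chosen for the widest range of levels. Cdh1 was low in female replicate 3, at 9.40 beside 10.17 to 10.29 in the other females. Cdh9 was high in male replicate 2, at 10.42 beside 7.87 to 8.19 in the other males. Pcdh20 was high in male replicate 2, at 11.27 beside 9.48 to 9.70 in the other males.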

How the results depend on the processing

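With only 4 arrays and 2 residual degrees of freedom, no member passed the adjusted threshold under any setting that kept all arrays, and leaving out 1 array at a time gave 0 to 5 members, the 5 without replicate 4. The 7 members at an unadjusted p under 0.05 (8.5% of all probes) became 3 without the dye term (2.9%), 4 with median centring of the scanner's log ratios (8.09%), and 0 to 26 when 1 array was left out (1.84% to 29.6%). The 6 members with a dye effect (12.7% of all probes) became 0 with median centring (0 of all probes) and 0 to 19 when 1 array was left out (0 to 29.3%). The median log2 ratio was -0.20 in the authors' value table, where that of all probes was -0.06.

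In a separate-channel fit that dropped the pairing by array (no replicate block), 5 members had an unadjusted p under 0.05 (7.85% of all probes). Of these, 1 was higher in females, beside 965 of all 21995 probes, and 4 were higher in males (3.46% of all probes). In the same fit 6 members had a dye effect (15.4% of all probes) and the median stayed at -0.02.

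Of the 29 probes with values given by rule, 23 kept 1 direction under each alternative that could be run for them. The Pcdh17 probe with the large dye term turned to -0.051 without background correction, -0.13 with median centring and -0.18 in the authors' table, and ran from -0.040 to 0.077 when 1 array was left out. With 1 array left out, Cdh8 ran from -0.098 to 0.066, Cdh9 from -0.72 to 0.011, Pcdh20 from -1.01 to 0.029, Pcdh19 from -0.34 to 0.013 and the second Pcdh7 probe from -0.15 to 0.055. The cause was not tested.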
